A study of Mus musculus with 4 samples.

Results

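The transcripts described here are 10 targets of the m6A reader YTHDF2 that are related to the 2-cell-like (2C-like) state of mouse embryonic stem cells (ESCs) and lie outside the Zscan4 and Usp17l gene families. They are Tmem92, Sox3, Lrrn2, Ptp4a3, Sall3, Eng, Gm1995, Amz1, Gm36718 and AF067061, taken by name from a table of 50559 genes, and all 10 were found. The study chose them as transcripts shared by its m6A-seq, its YTHDF2 RIP-seq and its RNA-seq after Ythdf2 knockdown. As far as its methods tell, that choice rested on libraries other than the 4 used here. Poly(A)+ RNA-seq was compared between cells given siRNA to Cnot1 (siCnot1) and cells given a non-targeting control (siNT), with 2 libraries labelled as biological replicates in each group. The labels name the cell line as E14, an ESC line, and both groups were grown with leukemia inhibitory factor and knock-out serum replacement. The study's methods describe ESCs that carry a tdTomato transgene under the MERVL promoter, and collection 48 h after transfection. The methods list more than 1 siRNA against Cnot1, and the sources used here do not give the one behind these libraries.

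N6-methyladenosine (m6A) is a mark on adenosines of mRNA that is enriched near stop codons and is read in the cytoplasm by YTHDF proteins. YTHDF2 binds marked mRNAs and recruits the CCR4-NOT complex through its scaffold CNOT1, and the complex shortens the poly(A) tail, a step that leads to decay. A small fraction of ESCs in culture transiently expresses genes of the 2-cell embryo, and these are called 2C-like cells.

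A core of the m6A consensus, GGACT, was counted in the sense strand of the longest coding transcript of each gene in GENCODE M21 (GRCm38), written with T for U. Of the 10 genes, 8 had a coding transcript there, and each of the 8 held at least 1 GGACT, as did 87.6% of 21877 genes with a coding transcript. The median was 1.46 sites per kb in the 8 and 1.01 over all of them. Ptp4a3 held 11 sites, Lrrn2 6, AF067061 5, Eng 4, and Tmem92, Sox3 and Amz1 3 each. The site closest to the stop codon is shown for 4 transcripts, because m6A is enriched there, and GGACT is in capitals. A match is a description of the letters and was not tested as a methylated site.
Tmem92: cagaaaacacagGGACTacgtttccatagc
Sox3: accagggcgccgGGACTgcggtcaatggaa
Eng: gcctcctcacctGGACTggcacaacttcgg
Lrrn2: aaggaacaggaaGGACTctgcctagagcct
The Tmem92 window lies at chr11:94778238-94778267 on the minus strand of GRCm38, 396 bases after the stop codon. For Sox3 the window is at chrX:60892101-60892130 on the minus strand, within the coding sequence, with the central adenosine 36 bases before the stop codon (a distance of -36). The Eng window is at chr2:32681941-32681970 on the plus strand, also 396 bases after the stop codon. The Lrrn2 window is at chr1:132939574-132939603 on the plus strand, 199 bases after the stop codon. The closest sites of Amz1, AF067061 and Ptp4a3, not shown, had distances of -106, -118 and -272. Lrrn2, Amz1 and AF067061, whose levels did not pass the test below, thus also held the motif. Distances to the stop codon were not computed over all genes.

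Library totals on genes lay between 32135824 and 32557440 counts, so that 3 counts correspond to 0.0921 to 0.0934 CPM (counts scaled to a common library size). This floor covers counting error only. Cnot1 (GRCm39 chr8:96445559-96534741) had 912 and 985 normalized CPM in the siNT libraries and 185 and 192 in the siCnot1 libraries, 19.8% of the control level. Normalized CPM here also use edgeR's TMM factors. Of 8 ESC markers, 6 were lower and none higher, with summed levels of 6489 to 6822 normalized CPM in siNT and 5406 to 5650 in siCnot1, and all 8 were expressed in every library. The calls of Sox2, Nanog and Esrrb were lost with library totals in place of TMM. Of the markers of other cell types, Emcn, T, Col3a1 and Dcn had 0 counts in every library. Of 6 primitive endoderm markers tested, only Dab2 was called, and it rose (log2 fold change 1.02, adjusted p = 1.39e-04 from edgeR). The others had 0.79 (Gata4), 0.72 (Sox17), 1.76 (Amn), -0.11 (Gata6) and -0.10 (Sox7). Of 3 fibroblast markers tested, only the collagen Col1a1 was called, and it rose (1.40, adjusted p = 5.41e-04), beside 1.06 (Col1a2) and 0.013 (Thy1). Of 5 trophoblast markers tested, the keratins Krt8 (-1.05, adjusted p = 9.91e-06) and Krt18 (-1.17, adjusted p = 0.0018) fell. The other trophoblast markers had 0.74 (Cdx2), 0.13 (Eomes) and -0.27 (Hand1) and were not called. Over all genes tested, 15.0% were called higher and 14.7% lower. The summed level of 6 primitive endoderm markers was 9.28 to 11.7 normalized CPM in siNT and 15.8 to 16.5 in siCnot1, that of 6 fibroblast markers 8.93 to 12.2 and 12.7 to 13.3, and that of 6 trophoblast markers 37.2 to 37.3 and 26.9 to 32.1. Mitochondrial genes took 1.17% and 1.40% of counts in siNT and 2.11% and 1.76% in siCnot1. The part of these markers and of the mitochondrial share in the results was not tested. These are bulk samples, in which more cells expressing a gene and more RNA of it per cell cannot be told apart.

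All 10 transcripts had enough counts to be tested. At an adjusted p under 0.05 (edgeR's quasi-likelihood test over 18144 genes), 7 were higher in siCnot1 and none was lower: Tmem92, Sox3, Gm36718, Sall3, Gm1995, Eng and Ptp4a3. Over all genes tested, 15.0% were higher by the same rule and 14.7% were lower. By the thresholds of the study (unadjusted p at most 0.05, log2 fold change at least 1) 3 of the 10 were higher, against 6.18% of all genes tested. For 8 of the 10, both siCnot1 libraries lay above both siNT libraries, which was the case for 32.7% of all genes tested. The median log2 fold change of the 10 was 0.71, and that of all genes tested was 0.0084. TMM assumes that most genes do not change, so each change is relative to the other genes tested. With library totals the median of all genes tested was 0.12. Lrrn2, Amz1 and AF067061 did not pass the test.

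**Figure D1:**
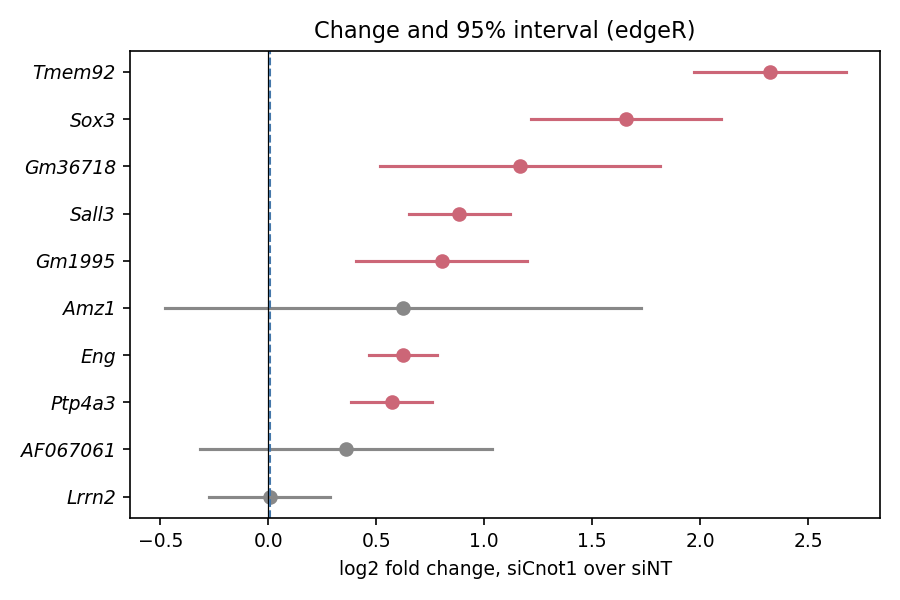
Log2 fold change of each of the 10 transcripts in siCnot1 over siNT (points) with its 95% interval (lines) from edgeR; red marks an adjusted p under 0.05, grey the others, the solid line 0 and the dashed line the median of all genes tested. The values run from 0.0060 for Lrrn2 to 2.32 for Tmem92, and the intervals of Lrrn2, AF067061 and Amz1 include 0.

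Sox3 and Sall3 are transcription factors, and both rose. Sox3 encodes an HMG-box factor of the SoxB1 group that is known from neural progenitors. It is a single-exon gene on the X chromosome (GRCm39 chrX:59934972-59937036). Its level was 2.38 and 2.17 normalized CPM in siNT and 6.77 and 7.58 in siCnot1. The groups did not overlap, and the lowest ratio of any siCnot1 library to any siNT library was 2.85. The log2 fold change was 1.66 (standard error, SE, 0.21, with an edgeR adjusted p = 2.85e-06). Only 2.37% of the genes tested had a larger log2 fold change.

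Sall3 is a zinc-finger factor of the spalt-like family whose coding transcript held 8 GGACT sites. It had 16.0 and 18.4 normalized CPM in siNT and 28.8 and 34.5 in siCnot1. Both siCnot1 libraries were above both controls, and the spread within each group was smaller than the gap between them. Its log2 fold change was 0.88 (SE 0.11, with an edgeR adjusted p = 2.81e-06). Of 7 neural progenitor markers 4 could be tested, 0 were higher and 1, Pax6, was lower. Their summed level was 31.9 to 32.7 normalized CPM in siNT and 29.9 to 31.4 in siCnot1, and the part of such cells in the results for Sox3 and Sall3 was not tested.

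Of 4 genes for membrane or signalling proteins, Tmem92, Eng and Ptp4a3 rose and Lrrn2 did not pass the test. Tmem92, named as a transmembrane protein, had the largest change of the 10. It had 2.79 and 2.71 normalized CPM in siNT and 14.3 and 13.3 in siCnot1 (GRCm39 chr11:94668043-94673529). Replicates differed little, by 1.03 times within siNT and 1.07 times within siCnot1, while the ratio between groups lay between 4.75 and 5.26 for any pair of libraries. The log2 fold change was 2.32 (SE 0.17, with an edgeR adjusted p = 1.11e-09), which ranked 154 from the top among 18144 genes.

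Eng encodes endoglin (CD105), a co-receptor for ligands of the TGF-beta superfamily and best known in endothelium. Its level was 54.2 and 60.1 normalized CPM in siNT and 92.3 and 83.7 in siCnot1 (GRCm39 chr2:32536607-32572681). The groups did not overlap. The log2 fold change was 0.62 (SE 0.076, with an edgeR adjusted p = 1.51e-06), a 1.54-fold rise with a 95% interval of 1.38 to 1.72. Exons of Eng share 61 bases with Fpgs on the opposite strand. Fpgs fell from 69.9 and 66.1 to 55.5 and 58.1 normalized CPM (log2 fold change -0.26, adjusted p = 0.0114 from edgeR), opposite to Eng. Whether the call of Fpgs holds with scalings other than TMM was not examined.

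Endothelial markers were examined beside Eng. Their summed level was 30.0 to 39.8 normalized CPM in siNT and 63.5 to 66.0 in siCnot1. Of 4 that could be tested only Tek, a receptor tyrosine kinase, was higher (log2 fold change 1.26, adjusted p = 1.15e-08 from edgeR). By the same rule 15.0% of all genes tested were higher. Tek alone went from 18.1 and 23.8 normalized CPM in siNT to 48.6 and 51.9 in siCnot1. The other tested markers had log2 fold changes of 0.052 (Kdr), 0.0016 (Vwf) and 0.23 (Tie1) and were not called. The defining marker Cdh5 was between 0.0642 and 0.239 normalized CPM in all 4 libraries, and Emcn had no counts. The part of endothelial markers in the result for Eng was not tested.

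Ptp4a3 encodes PRL-3, a prenylated protein tyrosine phosphatase. It had 36.4 and 42.9 normalized CPM in siNT and 61.0 and 56.9 in siCnot1 (GRCm39 chr15:73594994-73630615), with no overlap of the groups. The log2 fold change was 0.57 (SE 0.090, with an edgeR adjusted p = 3.76e-05). Eng and Ptp4a3 had modest fold changes but high levels, and together made up 58.0% of the summed gain of 86.4 normalized CPM over the 10 transcripts.

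Lrrn2 encodes a leucine-rich repeat protein of neuronal membranes. Its level was 11.4 and 12.1 normalized CPM in siNT and 10.9 and 12.6 in siCnot1 (GRCm39 chr1:132808093-132867743). The siCnot1 libraries lay on either side of the controls. The log2 fold change was 0.0060 (adjusted p = 0.98 from edgeR), with a 95% interval from -0.27 to 0.29. Lrrn2 had 354 to 421 counts per library, more than Sox3 in all 4 libraries and more than Tmem92 in both siNT libraries, and the interval stands for folds of 0.827 to 1.22.

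Amz1 encodes a metallopeptidase of the archaelysin family and had the lowest counts, 16 and 16 in siNT and 30 and 23 in siCnot1. The groups did not overlap, yet the test was not passed (log2 fold change 0.62, SE 0.53, with an edgeR adjusted p = 0.42). Its estimate was the same as that of Eng to 2 decimals, and the 95% interval, from -0.48 to 1.73, was much wider.

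Gm36718, a predicted protein-coding gene of 1 exon on chromosome 18, had 32 and 62 counts in siNT and 127 and 99 in siCnot1. The siNT libraries differed by 1.92 times in normalized CPM, the largest difference between replicates among the 10. Its log2 fold change was 1.16 (SE 0.31, with an edgeR adjusted p = 0.0066). Without a filter on low counts the adjusted p was 0.10. With 1 library left out at a time it was 0.18 without siNT replicate 1, 0.14 without siCnot1 replicate 1, 0.052 without siCnot1 replicate 2 and 0.038 without siNT replicate 2 (edgeR), so the call depended on these libraries.

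Not all of the 10 are single-copy. Transcript sequences of GENCODE M21 were cut into overlapping 31-base words, and the share of words also found in transcripts of other genes was 58.1% for Gm1995, 40.0% for AF067061, 6.84% for Amz1 and 3.62% for Tmem92. For Lrrn2, Sall3, Eng, Sox3 and Ptp4a3 it was between 0 and 1.14%. How reads that match several genes were counted is not given in the sources used here, so the split of reads among copies is uncertain for Gm1995 and AF067061. Gm36718 was not searched.

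Gm1995 is annotated as a transcribed pseudogene on chromosome 12. It shared 53.0% of its words with Gm7104, 11.8% with Gm21939, 8.48% with Gm18983 and 4.70% with Rexo1. Its level was 4.30 and 4.24 normalized CPM in siNT and 8.35 and 6.57 in siCnot1. The groups did not overlap, and the log2 fold change was 0.80 (SE 0.19, with an edgeR adjusted p = 0.0025). Leaving out 1 library at a time gave an adjusted p of 0.097 without siNT replicate 1, 0.088 without siNT replicate 2, 0.094 without siCnot1 replicate 1 and 0.016 without siCnot1 replicate 2 (edgeR). Gm7104 itself had 13 and 16 counts in siNT and 38 and 53 in siCnot1.

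AF067061 is a close relative of Tcstv1 and Tcstv3, genes known from 2-cell embryos. A stretch of 60 coding bases is shown beside its best match in the coding sequence of 4 relatives, because it shows that a read from this stretch cannot always be given to 1 gene. Capitals mark a base that differs from AF067061.
AF067061: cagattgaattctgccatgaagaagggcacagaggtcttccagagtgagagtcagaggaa
Gm20767: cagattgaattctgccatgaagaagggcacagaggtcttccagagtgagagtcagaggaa
Gm21818: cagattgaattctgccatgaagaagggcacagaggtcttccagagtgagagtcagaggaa
Tcstv1: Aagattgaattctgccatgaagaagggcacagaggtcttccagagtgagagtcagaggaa
AF067063: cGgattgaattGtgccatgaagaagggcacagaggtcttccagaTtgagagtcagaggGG
On chromosome 13 of GRCm38 these lie at chr13:120264044-120264103 (AF067061, plus strand), chr13:120154869-120154928 (Gm20767, plus), chr13:120173426-120173485 (Gm21818, plus), chr13:119893793-119893852 (Tcstv1, minus) and chr13:119828372-119828431 (AF067063, minus). Gm20767 and Gm21818 had 0 differences from AF067061 over the 60 bases, Tcstv1 had 1 and AF067063 had 5. Tcstv3, not shown, also had 1. The stretch was chosen for having the fewest differences from the closest relatives, and was more alike than the transcripts as a whole. Over the whole transcript, AF067061 shared 20.8% of its words with Gm20767 and 14.9% with Gm21818. The 0 differences thus describe this stretch only.

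AF067061 had 65 and 41 counts in siNT and 64 and 82 in siCnot1. The groups overlapped, since siNT replicate 1 had 2.09 normalized CPM and siCnot1 replicate 1 had 1.91. The log2 fold change was 0.36 (SE 0.33, with an edgeR adjusted p = 0.45), with a 95% interval from -0.31 to 1.03. The value rested on single libraries: it was 0.73 without siNT replicate 1, 0.060 without siNT replicate 2, 0.52 without siCnot1 replicate 1 and 0.16 without siCnot1 replicate 2, with adjusted p between 0.25 and 0.92 in edgeR. Counts were also summed over AF067061, Gm20767, Gm21818, Tcstv1, Tcstv3 and AF067063. If each read was counted once, the sum is unaffected by any split of reads within these 6. Whether shared reads were dropped or counted more than once is not given in the sources used here. The siNT libraries had 503 and 466 such counts and the siCnot1 libraries 913 and 1024, and in normalized CPM the mean was 1.86 times higher in siCnot1. Most of the summed counts belonged to Gm20767 (286 and 316 without the knockdown, 587 and 704 with it). That gene was called higher by itself (log2 fold change 1.00, adjusted p = 3.53e-06 from edgeR). Gm21761, which shared the largest part of the words of AF067061 (24.4%), lay outside the sum. The sum is therefore not a corrected value for AF067061. It was formed after the values of its genes were seen and was not tested.

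FPKM, computed from the counts, the listed exon lengths and the library totals, allow levels to be set beside each other between genes. In siNT the order from the highest was Eng (15.4 ± 1.14 FPKM, SD, n = 2), Ptp4a3 (6.68 ± 0.772), Lrrn2 (3.37 ± 0.138), AF067061 (1.82 ± 0.591), Gm36718 (1.62 ± 0.725), Sall3 (1.56 ± 0.154), Tmem92 (1.21 ± 0.0265), Sox3 (1.06 ± 0.0691), Gm1995 (0.948 ± 0.0102) and Amz1 (0.184 ± 0.00100). The ranges of AF067061 and Gm36718 overlapped, as did those of Gm36718 and Sall3, and the other neighbours in the order did not overlap between libraries. Further apart in the order, the range of Gm36718 (1.11 to 2.14) spanned that of Tmem92, and that of AF067061 (1.40 to 2.24) spanned that of Sall3. In siCnot1, Tmem92 reached 6.54 ± 0.375 FPKM and Sox3 3.61 ± 0.262 (SD, n = 2). Tmem92, below Lrrn2 in both controls, was above it in both siCnot1 libraries, where Lrrn2 had 3.65 ± 0.328. Eng, at 25.6 ± 1.97, and Ptp4a3, at 10.7 ± 0.605, kept the top of the order, and Amz1, at 0.306 ± 0.0592, the bottom.

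**Figure D2:**
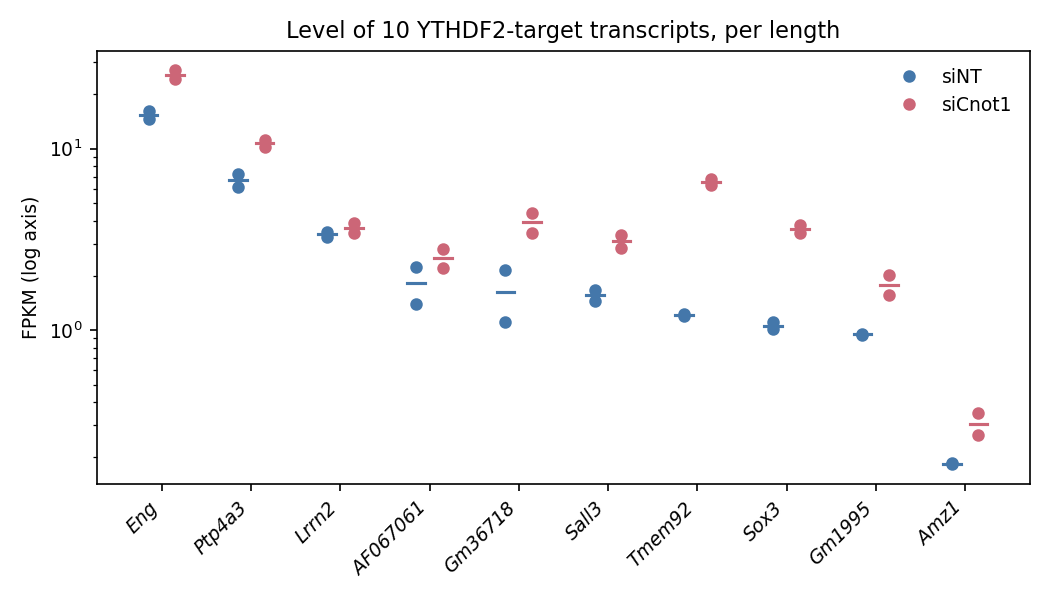
FPKM on a log axis for the 10 transcripts, ordered by their mean in siNT; points are libraries (2 per group), short lines the group means, blue siNT and red siCnot1. Tmem92 moved from 1.21 to 6.54 FPKM and Sox3 from 1.06 to 3.61, while Lrrn2 stayed between 3.27 and 3.88 in all 4 libraries.

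Genes of the same families as Sox3, Sall3, Ptp4a3, Lrrn2, Amz1 and Eng were compared in the same test, and 11 of 12 had enough counts. The relatives of Gm1995 and AF067061 described above are not among them, and no relatives of Tmem92 and Gm36718 were listed. Of the 11, 3 were higher and 3 lower (median log2 fold change 0.024), or 4 and 1 with library totals. Over all genes tested, 15.0% were higher and 14.7% lower with TMM. Within the SoxB1 group, Sox2, a pluripotency factor, had 522 and 474 normalized CPM in siNT and 428 and 455 in siCnot1 (log2 fold change -0.17, adjusted p = 0.027 from edgeR), a fall that did not pass with library totals in place of TMM. Sox1, a neural factor, had a log2 fold change of -0.36 and did not pass (adjusted p = 0.10 from edgeR). Sox3 thus differed in direction from Sox2 in this comparison, though the difference itself was not tested.

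Among the spalt-like genes, Sall2 rose with Sall3, from 3.44 and 2.90 to 7.69 and 8.96 normalized CPM (log2 fold change 1.39, adjusted p = 9.00e-06 from edgeR). Sall1 fell from 204 and 211 to 162 and 159 (log2 fold change -0.37, adjusted p = 3.03e-05 from edgeR). Sall4, a pluripotency factor of ESCs, had between 203 and 209 normalized CPM in all 4 libraries (log2 fold change 0.024, adjusted p = 0.80 from edgeR). Sall1 and Sall4, the abundant spalt-like genes in these cells, were not called higher.

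Of the phosphatases related to Ptp4a3, Ptp4a2 fell (log2 fold change -0.21, adjusted p = 0.0059 from edgeR), a call lost with library totals, and Ptp4a1 had a log2 fold change of 0.12 (adjusted p = 0.22), called higher only with library totals among the scalings. Lrrn1 rose from 0.257 and 0.383 to 0.954 and 1.73 normalized CPM (log2 fold change 2.06, adjusted p = 0.0050 from edgeR), Lrrn4 had a log2 fold change of 0.086 (adjusted p = 0.77), and Lrrn3 was too low to be tested. Amz2 had a log2 fold change of -0.20 (adjusted p = 0.13). Tgfbr3, betaglycan, which is the co-receptor most similar to endoglin, rose from 5.72 and 4.62 to 12.6 and 8.48 normalized CPM (log2 fold change 1.03, adjusted p = 2.20e-04 from edgeR).

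**Figure D3:**
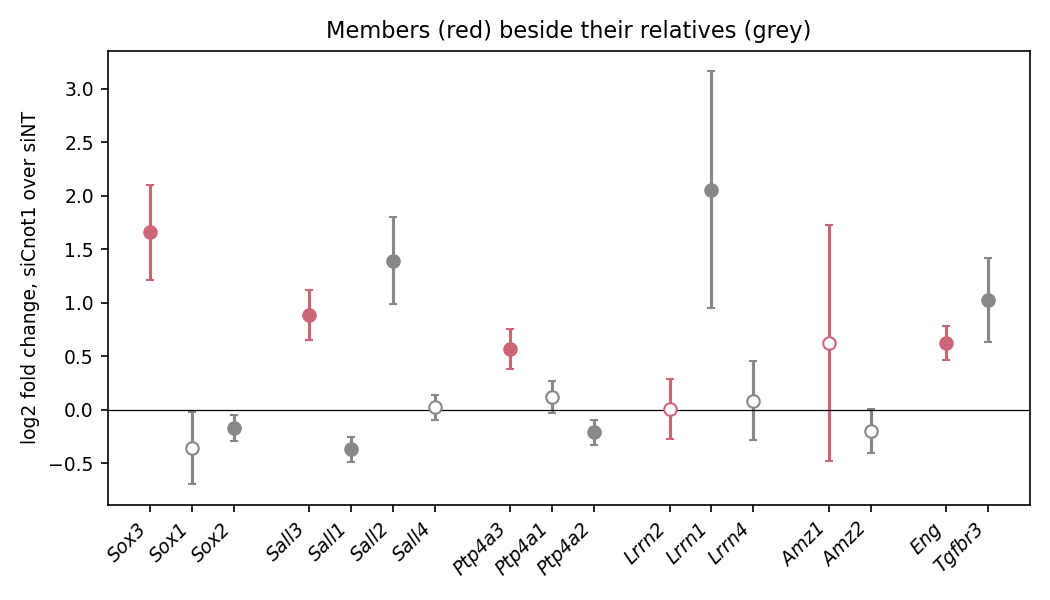
Log2 fold change in siCnot1 over siNT with its 95% interval for 6 of the YTHDF2-target transcripts (red) and their tested relatives (grey); filled points have an adjusted p under 0.05. Sox3 (1.66) stands beside Sox2 (-0.17), Sall3 (0.88) beside Sall1 (-0.37), and Lrrn2 (0.0060) beside Lrrn1 (2.06).

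Endoglin acts with type I and type II receptors that signal through SMAD proteins to the Id genes. Of 16 genes of this pathway, 14 could be tested, of which 2 were higher and 4 lower (median log2 fold change -0.14). The shares over all genes tested were 15.0% higher and 14.7% lower. With library totals 5 of the 14 were higher and 2 lower. Id1, a target of BMP signalling, fell from 36.7 and 34.4 to 15.7 and 13.9 normalized CPM (log2 fold change -1.27, adjusted p = 7.12e-09 from edgeR). Smad5 fell (-0.32, adjusted p = 0.0035), the type I receptor Bmpr1a rose (0.24, adjusted p = 0.0069), and Id3 had a log2 fold change of -0.31 (adjusted p = 0.028), a call lost with library totals. Smad9 and Tgfbr2 had log2 fold changes of -0.046 and -0.11 (adjusted p = 0.95 and 0.82), and the sign of Smad9 turned with library totals. Id1 and Smad5 remained lower, and Bmpr1a higher, under every scaling tried.

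Other 2C genes outside the Zscan4 and Usp17l families were examined from a list of 36 names, of which 28 were in the table and 23 could be tested. Of these 12 were higher and none lower, where 15.0% and 14.7% of all genes tested were. The log2 fold changes of the 23 lay between 0.092 and 2.68, with a median of 0.96. Gm2016 (log2 fold change 1.21, adjusted p = 9.26e-09), Gm5662 (1.01, adjusted p = 1.04e-07), Gm8300 (1.07, adjusted p = 1.86e-07) and Gm20767 (1.00, adjusted p = 3.53e-06) had the smallest p in edgeR. They belong to multicopy families, so the split of reads among copies is uncertain. Sp110 and Tdpoz4 had log2 fold changes of 0.092 and 0.16 and did not pass (adjusted p = 0.91 and 0.81). With counts summed within each family, Zscan4a to Zscan4f had a log2 fold change of 1.42 (95% interval 1.30 to 1.55) and the Usp17l genes had a 95% interval of 1.33 to 1.68, in fits with each family as 1 feature. Among the 10 transcripts Tmem92 was above these intervals, and the estimates of Sall3, Gm1995, Eng, Ptp4a3, AF067061, Amz1, Gm36718 and Lrrn2 were below them. The estimate of Sox3 (1.66) was above the Zscan4 interval and within the Usp17l one. The 95% intervals of Sox3 (1.22 to 2.10), Gm36718 (0.52 to 1.81) and Amz1 (-0.48 to 1.73) themselves covered both family intervals. These differences were not tested.

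Of 13 genes of the m6A and deadenylation machinery, 2 were higher and 3 lower (2 and 1 with library totals). With TMM, 15.0% of all genes tested were higher and 14.7% lower. The 3 lower genes include Cnot1, the target of the siRNA (log2 fold change -2.33, adjusted p = 2.37e-18 from edgeR). Cnot6l, a deadenylase subunit, fell (-0.33, adjusted p = 0.0076), as did Wtap, a subunit of the m6A writer complex (-0.22, adjusted p = 0.0089), both calls lost with library totals, and the reader Ythdf3 rose (0.20, adjusted p = 0.016). Ythdf2 had a log2 fold change of -0.091 (adjusted p = 0.58) and Cnot8 one of -0.039 (adjusted p = 0.71), and both signs turned with library totals.

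The nearest tested gene on each side of each member, leaving out genes that overlap it, gave 20 neighbours, of which 8 were higher and 3 lower, where 15.0% and 14.7% of all genes tested were. With library totals 11 were higher and 1 was lower, since Nfasc, Atp9b and Setbp1 gained a call and Gm17383 and Cdk9 lost theirs. The median log2 fold change of the 20 was 0.40. The gaps between members and neighbours ran from 17 bp (Gm6172) to 1326296 bp (Gm17383), with 908850 bp for Setbp1 beside Gm36718. Tmem92 lay between Gm11545 and Gm11546, both of which rose: Gm11546 had 1.06 and 2.17 normalized CPM in siNT and 5.99 and 5.52 in siCnot1 (log2 fold change 1.83, adjusted p = 2.22e-05), and Gm11545 had 1.06 and 1.31 in siNT and 2.48 and 2.18 in siCnot1 (0.97, adjusted p = 0.029 from edgeR). They lie 14536 and 16020 bp from Tmem92, and share 0.769% and 0.136% of its 31-base words. Gm6172, 17 bp beyond the end of Gm36718, rose with it (log2 fold change 1.32, adjusted p = 2.48e-05 from edgeR), and reads spanning both cannot be told apart. Gm2016 beside Gm1995, and Gm21818 and Gm52032 beside AF067061, also rose (log2 fold changes 1.21, 0.82 and 2.18, adjusted p = 9.26e-09, 0.016 and 0.038 from edgeR). Gm52032 was near the floor, with 3 and 4 counts in siNT and 17 and 18 in siCnot1. Gm21818 is the relative of AF067061 shown above, so reads may be shared between them.

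Gm14661, 83005 bp from Sox3, fell (log2 fold change -2.15, adjusted p = 0.033 from edgeR) from 0.707 and 0.510 to 0.0895 and 0.179 normalized CPM. Beside Eng, Ak1 on 1 side rose (0.46, adjusted p = 4.03e-05) and Cdk9, beyond the overlapping Fpgs, fell (-0.17, adjusted p = 0.046), the latter a call lost with upper-quartile scaling and with library totals. Gm17383, 1326296 bp from Sall3, fell (-0.47, adjusted p = 0.015), a call lost with library totals. Mdm4, beside Lrrn2, rose (0.42, adjusted p = 1.78e-05) while Lrrn2 itself had a log2 fold change of 0.0060. The neighbours of Ptp4a3 and Amz1 did not pass the test. Within Lrrn2, Gm31159 on the opposite strand shares no exon bases with it and had a log2 fold change of 0.21 (adjusted p = 0.69).

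**Figure D4:**
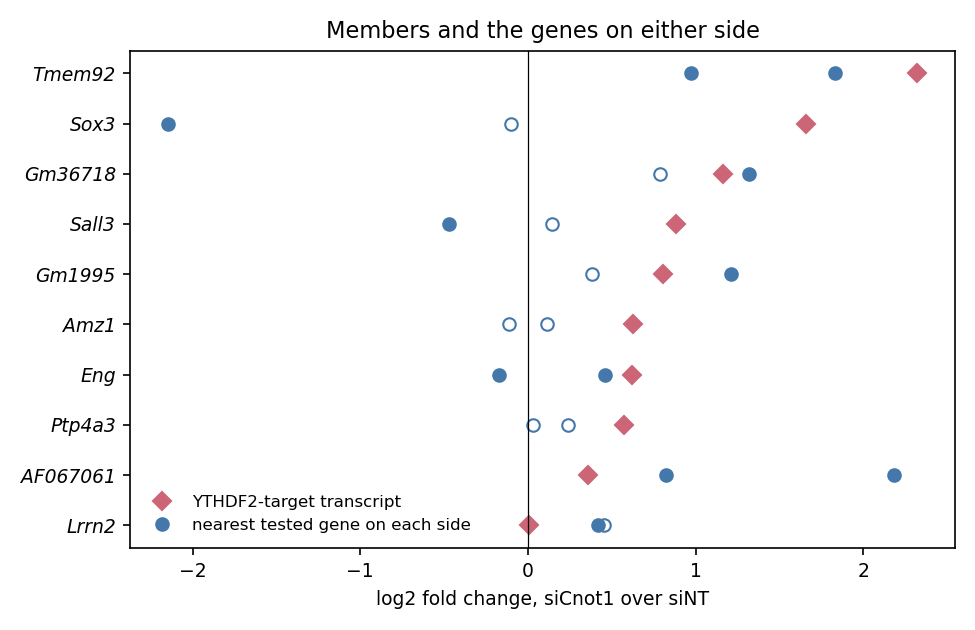
Log2 fold change in siCnot1 over siNT for each of the 10 transcripts (red diamonds) and for the nearest tested gene on each side that does not overlap it (circles, filled where the adjusted p is under 0.05). Genes on both sides rose beside Tmem92 (0.97 and 1.83) and AF067061 (0.82 and 2.18), while both neighbours of Ptp4a3 and of Amz1 lay between -0.12 and 0.24 and did not pass. The value of 2.18 is that of Gm52032, which had only 3 and 4 counts in siNT.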

How the data were processed

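Libraries were made from poly(A)+ RNA with a dUTP kit and sequenced as paired ends on an Illumina NovaSeq. The authors deposited raw counts per gene, neither normalized nor pooled, with an exon length for each gene; the counter and its strand setting are not given in the sources used here. Per the labels, processing notes name fastp 0.19.4, HISAT2 2.2.1, DESeq2 1.40.2 and mm10. The listed gene positions are not those of GRCm38 (0 of 10 members share its start and end) and were taken as GRCm39, which no source used here states.

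Counts were tested with edgeR 4.0.16 in R 4.3.3 (filterByExpr with a minimum count of 10, TMM, quasi-likelihood test, Benjamini-Hochberg adjustment over 18144 genes), with group as the only term. FPKM were computed from counts, listed lengths and library totals. Standard errors are the log2 fold change over the square root of F. The fits were tested on simulated data. Alternatives were other scalings, other filters, DESeq2 1.42.0, limma-voom (limma 3.58.1), the replicate number as a block and leaving out each library. Sequences came from GENCODE M21 and were joined by gene symbol. The genes named are the 10 members, Cnot1, every relative, neighbours that were called or overlap a member, and from each list up to 4 called genes with the smallest p and 2 uncalled with the largest; the genes sharing words with Gm1995, the markers, the neighbours gaining a call with library totals and the copies of AF067061 were chosen after their values were seen. Members, lists and markers were chosen with earlier results of these data known. That the groups came from separate cultures rests on the study's methods; p-values measure the spread between these libraries.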

Additional observations from a re-analysis of the deposited data

How the results depend on the processing

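The 7 calls among the 10 transcripts held with DESeq2's size factors, upper-quartile scaling, library totals, at least 1 CPM in 2 libraries, DESeq2 and limma-voom. Without a filter on low counts 6 were called, since Gm36718 did not pass. None of the 10 was called lower in any fit. Both groups carry replicate numbers, but libraries with the same number deviated from their group means with a correlation of only 0.011, and nothing ties the numbers to shared cultures; with the replicate block 7 were called (median 0.71), and over all genes 2524 were higher and 2431 lower. The median moved to 0.82 with library totals, which shift the median of all genes tested to 0.12, and to 0.81 with at least 1 CPM in 2 libraries, which leaves out Amz1. Lrrn2 turned to -0.00060 without a filter, to -0.041 without siNT replicate 1 and to -0.10 without siCnot1 replicate 2, with 0.099 as its highest value when 1 library was left out. Leaving out 1 library, which leaves a lone library assumed to vary like the other group, gave 5 to 6 calls, medians of 0.58 to 0.77, and 743 to 1439 higher and 871 to 1463 lower genes over all. Over all genes, 2719 were higher and 2668 lower (50.5% higher); without a filter these were 1303 and 1450, and with library totals 3999 and 1563 (71.9% higher). At the study's thresholds 1121 were higher and 326 lower, against 729 and 186 with at least 1 CPM in 2 libraries. The cause was not tested, apart from fewer genes under that filter and the common shift with library totals. Amz1 had the lowest counts of the 10 (16 to 30) and the widest interval.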
